A study of Homo sapiens with 12 samples.

Results

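SMAD proteins carry TGFβ and BMP signals from the cell surface to the nucleus, and the SKI and SKIL proteins hold SMAD complexes back at their target genes. The 10 genes described here were taken by name, as rows of the deposited gene tables, without use of any measured value. They were the 5 receptor-regulated SMADs (SMAD2 and SMAD3 of the TGFβ branch, SMAD1, SMAD5 and SMAD9 of the BMP branch), the common partner SMAD4, the inhibitory SMAD6 and SMAD7, and the corepressors SKI and SKIL. All 10 were listed among the 16848 rows of the clone 2 table, and 9 among the 15612 rows of the clone 1 table, where SMAD6 was not listed.

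The cells were RCH-ACV, a human pre-BCR-positive B-cell precursor ALL line. Clone 1 and clone 2 were each grown as a dasatinib-sensitive subline in 0.1% DMSO and as a dasatinib-resistant subline in rising concentrations of dasatinib, a multi-kinase inhibitor, of at most 1 µM. Each of the 4 groups had 3 RNA-seq libraries, 12 in all, from RNA taken from one subline at separate time points, so the groups are repeated samples of single sublines. The value used for each gene was the mean normalized count, a read count divided by the size factor of its library and averaged by the authors over the 6 libraries of a clone. Resistant and sensitive cells are pooled in this mean. No difference between them is given here, and no replicate error can be attached to a value.

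A TGFβ or BMP ligand brings type I and type II receptors together, and the type I receptor phosphorylates a receptor-regulated SMAD on serines at its C-terminal end. The phosphorylated SMAD joins SMAD4, and the complex enters the nucleus and binds DNA with other factors. SMAD6 and SMAD7 block this step at the receptor, and SKI and SKIL recruit histone deacetylase complexes to SMADs. In B-cell precursors TGFβ is known as a brake on proliferation.

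The phosphorylated end is written in the genes themselves. The lines that follow print the last 8 codons before the stop codon of the 8 SMAD genes, 24 bases each, 5′ to 3′ on the coding strand, because these bases separate the receptor-regulated SMADs from the others. They come from the last coding exon of the GENCODE release 29 transcript with the longest coding sequence, with GRCh38 positions. Capitals mark the 4 codons of the serine-serine-any-serine ending where the translated sequence has it.
SMAD2, chr18:47841830-47841853, minus strand: tcagtgcgttgcTCAAGCATGTCA
SMAD3, chr15:67190510-67190533, plus strand: agcatccgctgtTCCAGTGTGTCT
SMAD1, chr4:145557908-145557931, plus strand: cataatcctattTCATCTGTATCT
SMAD5, chr5:136177454-136177477, plus strand: ctgaaccccataTCTTCTGTTTCA
SMAD9, chr13:36848679-36848702, minus strand: cataaccccattTCTTCAGTGTCT
SMAD4, chr18:51078441-51078464, plus strand: attgcagacccacaacctttagac
SMAD6, chr15:66781509-66781532, plus strand: gagatcctcctcaacaaccccaga
SMAD7, chr18:48921375-48921398, minus strand: ctagaggtcatcttcaacagccgg
The ending was present in 5 of the 10 members, the 5 receptor-regulated SMADs, and absent from SMAD4, SMAD6, SMAD7, SKI and SKIL.

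By count, SMAD2 and SMAD3 of the TGFβ branch were among the higher rows of both tables. SMAD2 had a mean normalized count of 1365 in clone 1 and 1725 in clone 2, higher than 78.6% and 80.1% of the rows of the table. SMAD3 had 1365 in clone 1 and 2154 in clone 2, higher than 78.6% and 84.3% of the rows. Both lay above the upper quartile of the rows, which was 1159 in clone 1 and 1372 in clone 2. These counts are not corrected for length. Per kilobase of exon SMAD2 was higher than only 30.4% of the genes with a length in clone 1 and 35.0% in clone 2. SMAD3 was higher than 61.1% and 68.7% of them. Members are compared with one another per length further on.

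The BMP branch was uneven. SMAD5 had a mean normalized count of 1492 in clone 1 and 2014 in clone 2, higher than 80.7% and 83.1% of the rows. SMAD1 had 961 and 1275, higher than 70.5% and 73.3% of the rows. Both therefore lay above the median row, which had 406 in clone 1 and 442 in clone 2. SMAD9, the third BMP-regulated SMAD, lay below it, at 278 in clone 1 and 323 in clone 2. Per kilobase of exon SMAD5 was higher than 60.7% and 64.6% of the genes with a length, and SMAD1 higher than 79.1% and 81.1%.

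SMAD4, which is shared by the TGFβ and BMP branches, also lay above the upper quartile of the rows by count. Its mean normalized count was 1444 in clone 1 and 1852 in clone 2, or 3.55 and 4.19 times the median row. Per kilobase of exon SMAD4 was higher than 57.1% of the genes with a length in clone 1 and 60.1% in clone 2.

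The inhibitory SMADs were the lowest members listed, SMAD7 in clone 1 and SMAD6 followed by SMAD7 in clone 2. SMAD7 had a mean normalized count of 42.0 in clone 1 and 46.4 in clone 2, above 22.0% and 26.4% of the rows. SMAD6 had 1.42 in clone 2, above 1.59% of the rows, and no value in clone 1. The lowest mean listed was 2.52 in clone 1 and 1.13 in clone 2, and 965 rows of clone 2, SMAD6 among them, lay under the lowest mean of clone 1. SMAD6 was thus among the lowest rows listed, and its level in the clones could not be compared.

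The corepressors lay near the middle of the tables. SKI, the cellular counterpart of a retroviral oncogene, had a mean normalized count of 454 in clone 1 and 654 in clone 2, above 52.3% and 57.8% of the rows. SKIL, which encodes SnoN, had 547 and 768, above 56.4% and 61.3% of the rows.

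**Figure D1:**
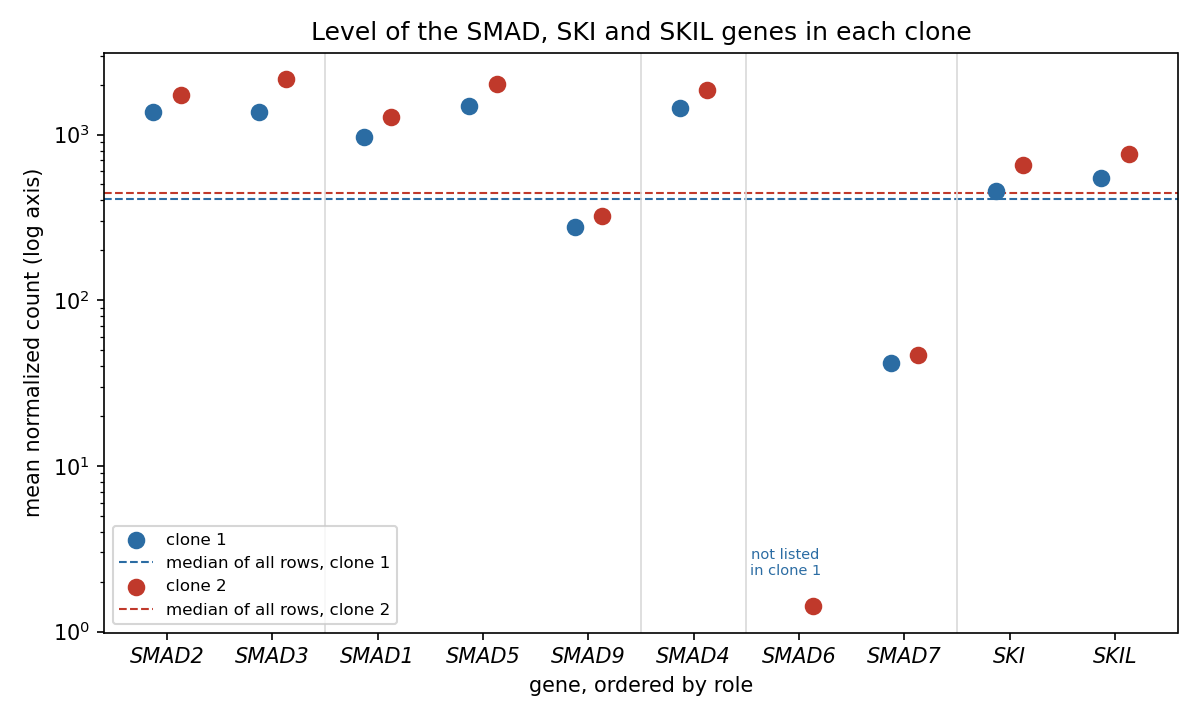
Mean normalized count (log axis) of each member in clone 1 (blue) and clone 2 (red), ordered by role, with dashed lines at the median of all rows of each table; each point is the authors' mean over resistant and sensitive libraries and has no error bar. SMAD1 to SMAD5, SKI and SKIL lie above the median lines, SMAD9 lies just below, SMAD7 lies at 42.0 and 46.4, and SMAD6 is listed in clone 2 alone, at 1.42.

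By count, 7 of the 9 listed members in clone 1 and 7 of 10 in clone 2 lay above the median row, and the members' median percentile was 70.5 and 67.3. Per kilobase of exon the count was 4 in each clone, since SMAD2, SKI and SKIL then lay below the median. The listed SMADs together held 6947 mean normalized counts in clone 1, where SMAD6 has no value, and 9390 in clone 2. TGFβ-regulated and BMP-regulated SMADs each held 39.3% of this sum in clone 1, and 41.3% and 38.5% in clone 2. SMAD4 held 20.8% and 19.7%, and the inhibitory SMADs, in clone 1 SMAD7 alone, 0.604% and 0.509%. Since counts grow with transcript length, these shares describe reads and not molecules. Per kilobase of exon the BMP-regulated SMADs held 61.9% of the summed SMAD level in clone 1 and 60.2% in clone 2, against 39.9% and 38.8% per kilobase of coding sequence, while the inhibitory SMADs held 0.885% and 0.747% against 0.669% and 0.559%.

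Levels of different members can be compared only per length, and the lengths of these genes differ far more outside the coding sequence than within it. In GENCODE the exons of SMAD2 cover 35303 bases, of which the coding sequence is 4.0%, whereas those of SMAD1 cover 2338 bases, of which it is 59.7%. The coding sequences of the 8 SMADs range from 1275 bases (SMAD3) to 1656 bases (SMAD4). No source used here says which transcript ends the authors' annotation held. The order of the members was therefore read on 3 length scales: all exons joined, the longest transcript and the longest coding sequence.

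On these scales, 27 of 36 pairs among the 9 members listed in both tables kept one order in both clones. SMAD7 was below every other member of the 9 in all of them, by 4.17-fold (SMAD2) at the least. SMAD9 was below SMAD1, SMAD3, SMAD4 and SMAD5, the last by 3.75-fold to 6.27-fold, and SKI and SKIL were below the same 4 genes. SMAD3 was above SMAD4 by 1.16-fold to 1.63-fold and above SMAD5 by 1.00-fold to 1.20-fold, so SMAD3 and SMAD5 were hardly apart. With no replicate values, it was not tested whether neighbours in this order differ beyond their spread.

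The order of SMAD1 against the other main SMADs turned with the length used, as did 5 of the 8 pairs that include SMAD2. Per kilobase of exon, SMAD1 had the highest level of the members, at 411 in clone 1 and 545 in clone 2, and SMAD2 had 38.7 and 48.9. Per kilobase of coding sequence, SMAD1 had 689 and 914, below SMAD2 at 975 and 1232. SMAD3 was above SMAD2 on each scale, by 4.88-fold in clone 1 and 6.09-fold in clone 2 per kilobase of exon but by only 1.10-fold and 1.37-fold per kilobase of coding sequence. SKIL stood at 0.937 times SKI in clone 1 and 0.913 times in clone 2 per kilobase of exon, and at 1.28 and 1.25 times per kilobase of coding sequence.

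**Figure D2:**
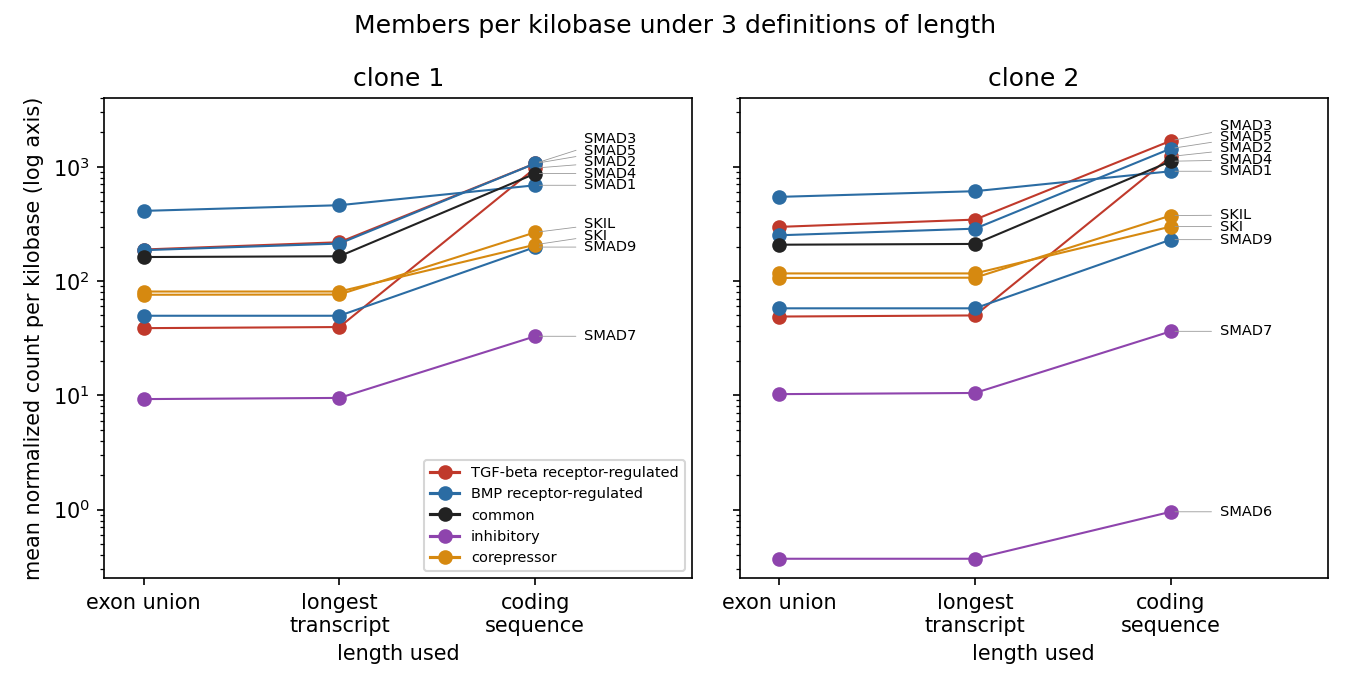
Mean normalized count per kilobase (log axis) of each member in clone 1 (left) and clone 2 (right) with the joined exons, the longest transcript or the longest coding sequence as the length; lines join the values of 1 gene and colours mark its role. The line of SMAD2 climbs from 38.7 to 975 in clone 1 and crosses those of SMAD1, SMAD4, SMAD9, SKI and SKIL, whereas SMAD7 stays below the other 8 members listed in both clones.

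How alike the members are bears on whether reads of one could be counted for another. Aligned end to end, the coding sequences of SMAD1 and SMAD5 were identical at 76.2% of the alignment columns, SMAD1 and SMAD9 at 72.2%, SMAD5 and SMAD9 at 72.1% and SMAD2 and SMAD3 at 68.8%. SMAD6 and SMAD7 shared 54.5% and SKI and SKIL 45.4%. The 23 pairs of SMADs of different roles ran from 42.2% to 62.7%, the latter for SMAD3 and SMAD9, so some of them were more alike than SMAD6 and SMAD7. Alignments of SKI or SKIL with a SMAD, genes of unlike families, gave 36.3% to 44.4%, so the value for SKI and SKIL lies close to that range.

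**Figure D3:**
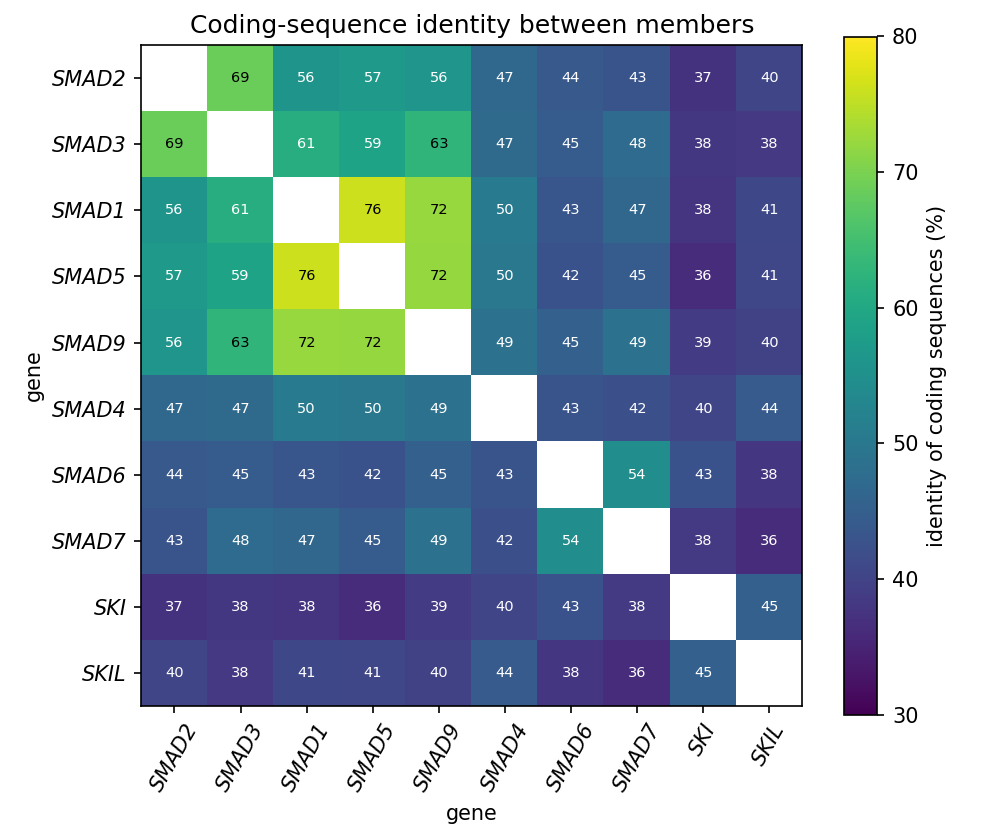
Identity of the coding sequences for the 45 pairs of members, as a percent of alignment columns, with genes ordered by role. The 3 BMP-regulated SMADs form a block at 72.1% to 76.2%, SMAD2 with SMAD3 stands at 68.8%, SMADs of different roles reach 62.7%, and the rows of SKI and SKIL against SMADs stay at or below 44.4%.

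The longest stretches shared without a mismatch were short. They are printed here for the pairs within a role and for the pair of different roles with the longest run, SMAD1 and SMAD7. They run 5′ to 3′ as they stand in the coding sequences, and each is the longest exact match of its pair. Matches with mismatches were not searched, so how much of a read could fit both genes was not tested.
SMAD5 and SMAD9: tggattgagattcatcttcatgggcc
SMAD1 and SMAD9: agcaccccctgctggattgagat
SMAD2 and SMAD3: ctgaagatcttcaacaaccagga
SMAD1 and SMAD5: ggtgccatggaggaactgga
SMAD6 and SMAD7: gtggagtcccgcggcgg
SKI and SKIL: tgccactggggctt
SMAD1 and SMAD7: agctttgtgaagggctgggg
The longest of all 45 pairs was the 26 bases of SMAD5 and SMAD9. The run of SMAD1 and SMAD7, at 20 bases, was as long as that of SMAD1 and SMAD5. No stretch of 50 bases in the coding sequence of SMAD2, SMAD3, SMAD5, SMAD6, SMAD7, SMAD9, SKI or SKIL occurred in a GENCODE transcript of another gene. Outside the coding sequence, 535 such stretches of the longest SMAD2 transcript, or 1.55% of all its stretches, also occurred in 493 other genes. In SMAD4, 36.7% of such coding stretches also occurred in 1 other gene model, AC091551.1, and in SMAD1, 24.4% occurred, on either strand, in SMAD1-AS1, its antisense gene. SMAD1-AS1 was listed in neither table. SMAD5-AS1, antisense to SMAD5, stood at 3.74 in clone 1 and 3.37 in clone 2. Because no source used here gives the strand setting of the counting, reads in the stretches that SMAD1 shares with its antisense gene, 16.2% of those of its longest transcript, may count for either.

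Between the clones, 4 of the 9 members listed in both tables stayed within the quartiles of all shared rows, 3 lay above and 2 below. This split is close to the one that quartiles fix for all shared rows, so it does not mark the members out. The 15582 rows listed in both tables had a median ratio of clone 2 to clone 1 of 1.29, and because the tables were normalized separately each ratio was divided by it. On this scale the quartiles of all shared rows were -0.11 and 0.11 (log2). SMAD4 stood at -0.01, SMAD2 at -0.03, SMAD1 at 0.04 and SMAD5 at 0.07.

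SMAD3 lay farthest above the median ratio. Its mean normalized count was 1.58 times higher in clone 2 as deposited and 1.22 times higher relative to the median row, a log2 difference of 0.29 that exceeded 90.3% of the shared rows. SKI at 0.16 and SKIL at 0.12 were also above the upper quartile, at percentiles 81.6 and 77.3. SMAD7, at -0.22, and SMAD9, at -0.15, lay below the lower quartile, at percentiles 13.8 and 19.7. These are differences of single pooled means with no test. The library titles carry the mark A for every clone 1 library and B for every clone 2 library, and clone, this mark, normalization and the share contributed by resistant and by sensitive libraries cannot be told apart in them.

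**Figure D4:**
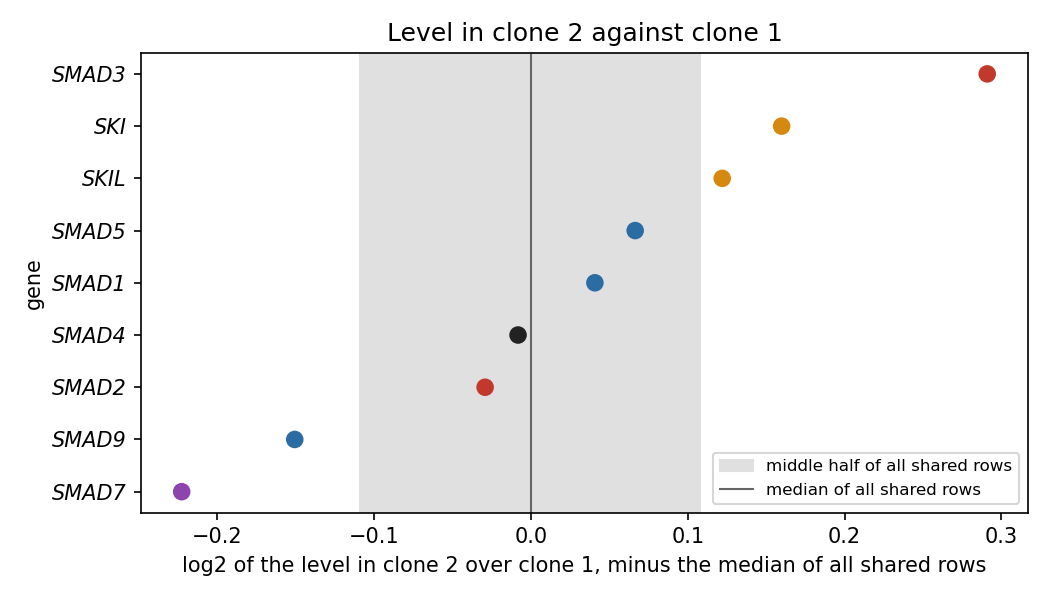
Log2 ratio of the mean normalized count in clone 2 over clone 1, minus the median of the 15582 shared rows, for the 9 members listed in both tables; the grey band runs from the lower to the upper quartile of all shared rows and colours mark the role as in the plot per kilobase. SMAD3 lies highest at 0.29, SKI and SKIL lie right of the band, and SMAD9 and SMAD7 lie left of it at -0.15 and -0.22.

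The list of TGFβ and activin receptor genes and the list of BMP receptor genes differed in how many were listed. The receptor genes ACVR2A and ACVR2B were placed in the former list only, and the contrast depends on that placing. Of 8 genes for TGFβ and activin receptors, 7 were listed in clone 1 and 8 in clone 2, and 5 lay above the median row in each. TGFBR2, the type II receptor that binds TGFβ, had mean normalized counts of 2362 and 3261, and TGFBR1, the type I receptor that phosphorylates SMAD2 and SMAD3, had 598 and 904. The coreceptor gene ENG had 1096 and 1673, the activin type I receptor gene ACVR1B 501 and 695, and ACVR1C was listed in clone 2 alone, at 1.15. Of 6 BMP receptor genes, 3 were listed in clone 1 and 4 in clone 2, and 1 lay above the median row, BMPR2 at 518 and 609. The type I receptors that act on SMAD1, SMAD5 and SMAD9 lay below the median row, with ACVR1 at 161 and 208, BMPR1A at 23.7 and 26.5, ACVRL1 at 1.71 in clone 2 alone and BMPR1B in neither table. AMHR2, the receptor gene for anti-Müllerian hormone, was not listed either. These receptor counts are not corrected for length. Per kilobase of exon the median gene had 121 in clone 1 and 128 in clone 2. On that scale TGFBR2 (502 and 693) and ENG (322 and 491) lay above it. TGFBR1 lay below it in clone 1 (90.4) and above it in clone 2 (137). ACVR1B (90.2 and 125), ACVR2B (53.2 and 58.2) and BMPR2 (45.2 and 53.1) lay below it in both.

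Genes that modify or move SMADs were mostly above the median row by count, not corrected for length. Of 12 ubiquitin ligases and deubiquitinases, all were listed, with 10 above it in clone 1 and 12 in clone 2, and STUB1, a ligase, had 1545 and 1910. The deubiquitinases USP9X, which acts on SMAD4, and USP4 had 3029 and 4409, and 1856 and 2249. Of 13 genes grouped as SMAD phosphatases, anchors and transport factors, 12 lay above the median row in each clone. This group also held the pseudoreceptor gene BAMBI, at 483 and 684. The importin IPO7 had 6227 and 8136, and the receptor-binding STRAP 3759 and 4873. The endosomal protein gene HGS had 2088 and 2487, and the phosphatase gene CTDSP2 2367 and 2709.

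Most corepressor partners were also above the median row by count. Of 14 such genes, 13 were listed in clone 1 and 14 in clone 2, with 12 and 13 above the median row, and MECOM was listed in clone 2 alone, at 7.35. The deacetylase genes HDAC1 and HDAC2 had 3103 and 5385 in clone 1 and 4044 and 7112 in clone 2, CTBP1 had 3255 and 4400, and SNW1, which encodes a SKI-interacting protein, had 1768 and 2415. Per kilobase of exon in clone 1 these 4 genes lay between 509 and 1461, and they were named because they were the highest on that scale. The 13 listed partners ran from 21.2 (ZEB1) to 1461 (HDAC1), against 80.9 for SKI and 75.8 for SKIL. Of 14 coactivators and DNA-binding partners, 7 of 13 listed and 8 of 14 listed lay above the median row. The transcription factor genes RUNX1, E2F4 and SP1 had 5853, 2968 and 3344 in clone 1 and 7694, 4143 and 4222 in clone 2, and the Mediator gene MED15 1449 and 1736, while RUNX2 was listed in clone 2 alone, at 1.43.

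Ranked by count, not corrected for length, with the 67 genes of these 6 lists, the highest member was SMAD5 in clone 1, at place 26 of 70 listed genes, and SMAD3 in clone 2, at place 24 of 75. SMAD2 and SMAD4 held places 29 and 28 in clone 1 and 30 and 27 in clone 2. SKIL and SKI held places 47 and 52 in clone 1 and 46 and 51 in clone 2. SMAD7 was at place 68 in both, and SMAD6 at place 74 in clone 2.

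The cells carried the markers of their label. All 10 B-cell precursor markers were listed, at 1828 to 13087 in clone 1 and 2487 to 13027 in clone 2, with the surrogate light chain gene IGLL1 at 9233 and 12008. Of 5 T-cell markers, CD247 alone was listed, at 52.0 and 54.9, and the 4 defining genes CD3D, CD3E, CD3G and CD2 were not. The 5 myeloid markers lay between 2.82 and 47.5. Of the erythroid and fibroblast markers, HBB and COL1A2 were not listed, whereas COL1A1 had 145 and 214 and PDGFRB, a receptor tyrosine kinase of mesenchymal cells, 4455 and 5010. The part of other cells in the levels of the members was not tested.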

How the data were processed

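RNA-seq libraries were made from poly(A) RNA with strand information. Per the labels, the submitters' processing notes list DESeq2, hg19, FastQC 0.10.1, Picard 1.107, SAMtools, bedtools 2.19.0 and BWA in versions 0.7.7-r441 and 0.6.2-r126, and they assign no step to any of these. No source used here names the annotation, the counter or its strand setting. The authors made the deposited signal values, 1 per gene and clone, as means of normalized read counts over the 6 libraries of a clone, read so from the column name that DESeq2 uses. The other columns hold the authors' comparison of resistant with sensitive cells (log2 fold change, standard error, test statistic, p-value, adjusted p-value and direction) and were not used, so no test planned for counts per library was run. Library depths are unknown, and the deposited means sum to 19108037 in clone 1 and 24561485 in clone 2.

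Percentiles are shares of rows with a lower mean. Rows sharing a symbol that had turned into a date (2 per clone) were left out. Lengths came from the GENCODE 29 basic annotation, which uses GRCh38 and matched 94.7% and 94.6% of the symbols. Coding sequences were aligned globally with Biopython 1.88, and stretches of 50 bases were searched on both strands. All 10 members are named, and of the other lists up to 4 genes with the highest level per kilobase of exon in clone 1, plus unlisted genes. The antisense genes, AC091551.1, BAMBI and the genes of the closing section that this rule does not reach were named after their values were seen. Members and lists were chosen with earlier results of these data known. Similarity of pattern to other genes was not computed, since 2 pooled means give no pattern. Protein sequences were not used here.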

Additional observations from a re-analysis of the deposited data

How the results depend on the processing

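No paired analysis was possible because the column used holds 1 pooled mean per clone and no value per library. For the same reason no library was left out in turn, and the planned test of resistant against sensitive cells was not run. The planned coding length from RefSeq proteins was also not run, and coding sequences and longest transcripts from GENCODE, chosen after seeing the data, took its place.

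Per kilobase of exon, 4 members lay above the median in clone 1 and 4 in clone 2, against 7 and 7 by count. With rows of at least 50 as the reference there were 5 and 5, with only the shared rows as the reference 7 and 7, and per kilobase of coding sequence 5 and 6. Without rescaling of the tables, all 9 members were above 0 between the clones, against 5 with it, and SMAD2, SMAD4, SMAD7 and SMAD9 turned sign to 0.34, 0.36, 0.14 and 0.22 (log2), by construction of that setting. The other scalings gave 5 members and turned no sign. The ratio of SMAD3 to SMAD2 was 1.00 in clone 1 and 1.25 in clone 2 by count and 1.10 and 1.37 per coding length, against 4.88 and 6.09 per kilobase of exon. The ratio of SMAD1 to SMAD5 turned from 2.21 and 2.17 per kilobase of exon to 0.644 and 0.633 both by count and per coding length. The ratio of SKIL to SKI turned from 0.937 and 0.913 to 1.21 and 1.17 by count and to 1.28 and 1.25 per coding length. The ratio of SMAD7 to SMAD6 in clone 2 lay between 27.6 and 38.0 on the scales tried and rests on a SMAD6 mean of 1.42. The longest transcript in place of all exons turned none of these ratios. Unknown library depth limits every value here.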

Other observations

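Some partners of the SMADs differed more between the clones than the members did, and they were picked after their values were seen. ZEB1, a zinc finger repressor that binds SMADs, had a mean normalized count of 136 in clone 1 and 448 for clone 2, a log2 difference of 1.35 relative to the median shared row. Its relative ZEB2 had 3402 and 3395, or -0.37 on the same scale. TGFBR3, the TGFβ coreceptor betaglycan, had 135 and 88.9 (-0.96), and USP11, a deubiquitinase, had 1538 and 1020 (-0.96). NEDD4L, a ligase for SMAD2 and SMAD3, had 264 and 504 (0.57). No test was possible for these differences of pooled means.

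Of other genes of the SKI and DACH family, also picked after their values were seen, SKOR1 was listed at 5.81 and 8.71, DACH1 was listed in clone 2 alone, at 8.92, and SKOR2 and DACH2 were listed in neither table. The clone 2 table held 1264 rows that the clone 1 table did not, with a median of 1.95, and 28 rows were listed in clone 1 alone.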
